A study of Danio rerio with 11 samples.

Results

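A set of 10 genes serves the entry of cholesterol into the cell and the synthesis of progestins from it. They are star, stard3, scarb1, cyp11a1, fdx1, hsd3b1, hsd3b2, cyp17a1, cyp17a2 and hsd20b2, taken by symbol from tables of 35889 genes, and all 10 were found there. Their mRNA was read in the ovary of adult female zebrafish (Danio rerio) at 180 days post fertilisation, in full-grown follicles over 650 µm that were enriched with a 600 µm filter and then picked by hand. Such a follicle is an oocyte in its wall of granulosa and theca cells. The 3 control libraries came from fish carrying 1 mutant allele at each of fshb, lhb, fshr and lhcgr. Each of the 4 lhb/lhcgr mutant libraries was homozygous mutant for lhb and lhcgr and heterozygous for fshb and fshr. The 4 fshb/lhcgr mutant libraries were homozygous mutant for fshb and lhcgr and heterozygous for lhb and fshr. Every group thus carried a mutant fshr allele, no wild type was included, and both mutants were homozygous mutant for the same receptor gene, lhcgr. The kind of allele is not given in the labels. The labels do not say that each replicate was another fish, so the p-values reflect the spread between these samples alone, which may be technical.

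Steroid synthesis begins with cholesterol. The receptor encoded by scarb1 takes it up from lipoproteins, stard3 moves it out of late endosomes, and star carries it across the mitochondrial membranes, the step that hormones regulate fastest. Inside the mitochondrion cyp11a1 cuts the side chain to give pregnenolone, with electrons passed on by a ferredoxin, the kind of protein that fdx1 encodes. The 3-beta-hydroxysteroid dehydrogenases turn pregnenolone into progesterone, cyp17a1 and cyp17a2 add a hydroxyl group, and a 20-beta-hydroxysteroid dehydrogenase makes the progestin that starts oocyte maturation in many fish. In full-grown follicles luteinizing hormone, acting through lhcgr, is known as the signal for that last phase, while follicle-stimulating hormone acts through fshr earlier in growth.

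Libraries held between 14179252 and 25484718 counts, with 9 of the 11 between 15233928 and 15805763, and no pair of libraries within a group agreed within sampling noise. The closest pair was lhb/lhcgr mutants 3 and 4, with a Pearson r of 0.979 over the log2 CPM of genes, where the other pairs reached at most 0.949. Counts of lhcgr were found in every library (1645 to 5051), so its mRNA does not check the labels. Counts of lhb were 294, 537 and 452 in controls, 20, 160, 10 and 18 in lhb/lhcgr mutants, then 47, 25, 97 and 61 in fshb/lhcgr mutants, which are heterozygous for it like the controls. Counts of fshb were at most 11 in any library. The summed level of 9 granulosa markers was 476 to 1030 CPM in controls, 350 to 595 in lhb/lhcgr mutants, then 396 to 691 in fshb/lhcgr mutants, that of 7 theca markers 308 to 700, 331 to 380 and 376 to 849, and that of 8 oocyte markers 3066 to 4354, 2610 to 3822 and 3908 to 4327. CPM are counts per 1e+06 counts, scaled by TMM factors between libraries. The theca list includes lhcgr itself, and also acta2, with means of 192, 147 and 347 CPM in the same order of groups. Its sum follows these genes in part and is no measure of theca cells alone. Of 4 genes of the interrenal gland, the fish counterpart of the adrenal cortex, the defining enzymes were near 0, with at most 11 counts of cyp11c1 and at most 2 of cyp21a2 in a library. The sum of the 4 was still 137 to 276 CPM in controls, 95.4 to 357 in lhb/lhcgr mutants, then 34.9 to 150 in fshb/lhcgr mutants, mostly from hsd11b2, whose enzyme inactivates cortisol (means of 187, 227 and 85.9 CPM, not called in any comparison). In such bulk samples fewer cells of a type and less RNA per cell cannot be told apart.

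The genes of the pathway were expressed at very different levels. Per gene length, in FPKM, the order of medians over the 11 libraries ran from cyp11a1 at 141, fdx1 at 110 and scarb1 at 89.0 through hsd3b1 at 66.2, cyp17a1 at 43.9 and stard3 at 32.9 to hsd3b2 at 15.2, star at 11.6, cyp17a2 at 11.2 and hsd20b2 at 0.186. Side chain cleavage and cholesterol uptake thus stood at the top, and star, the transporter, stood among the lowest. Over all libraries the ranges of neighbours in this order overlapped except between stard3 and hsd3b2 and between cyp17a2 and hsd20b2. Within the controls cyp11a1 (109 to 126 FPKM) also stood clear above fdx1 (57.6 to 86.5), and stard3 (31.7 to 49.7) above star (11.6 to 24.8). The order of medians differed between groups in its middle and at its lower end. The median FPKM of hsd3b1 was 67.9 in controls and 85.7 in fshb/lhcgr mutants, above cyp17a1 at 43.9 and 42.3. It was 43.1 in lhb/lhcgr mutants, just below cyp17a1 at 43.9 and with overlapping ranges. In the lhb/lhcgr mutants the median FPKM of cyp17a2 was 21.8 and that of star 4.89, with no overlap, while in controls star was at 18.4 and cyp17a2 at 10.2 with overlapping ranges.

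**Figure D1:**
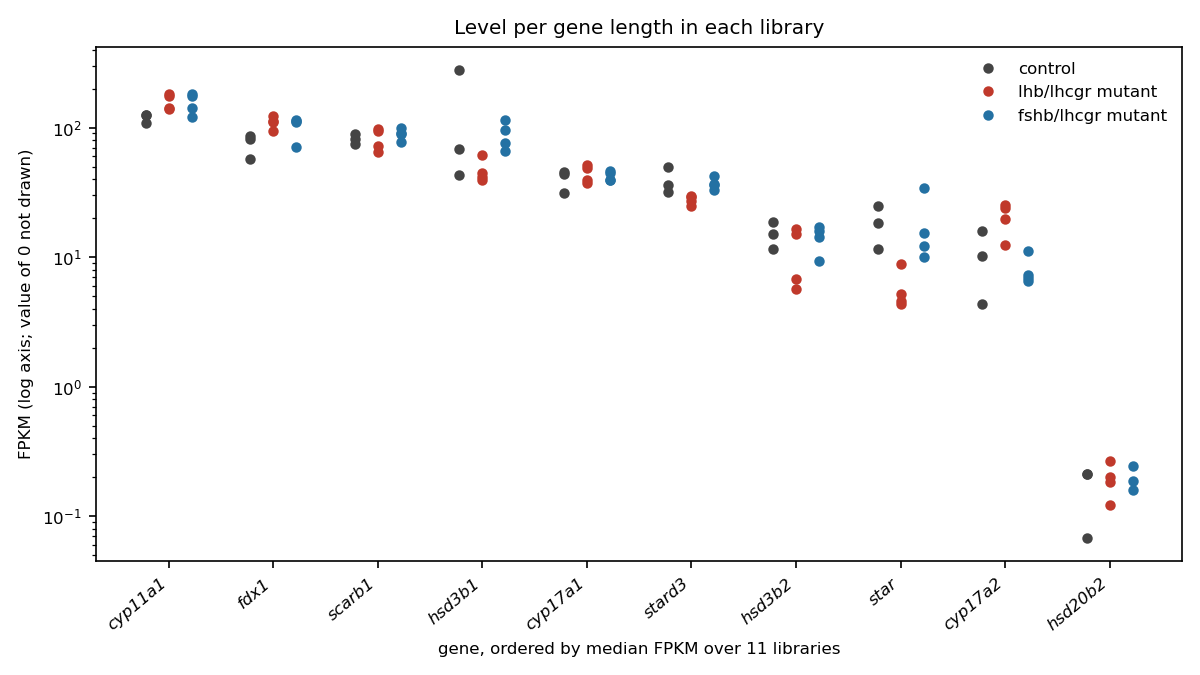
FPKM (log axis) of the 10 genes in each of the 11 libraries, ordered by the median over all libraries and coloured by group. The medians fall from 141 for cyp11a1 to 0.186 for hsd20b2, and star in lhb/lhcgr mutants (4.37 to 8.77) lies below star in controls (11.6 to 24.8).

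Differences between groups were tested with edgeR's quasi-likelihood test on the counts of 19421 genes that passed a filter on low counts, and a gene was called when its Benjamini-Hochberg adjusted p over all of these was below 0.05. All adjusted p-values below are from that test unless another is named, and log2 differences refer to the group named first minus the second. Of the 10 genes, 9 passed the filter and hsd20b2 did not. In lhb/lhcgr mutants against controls 1 of these 9 was called, as lower, where 7.34% of all genes tested were called (2.89% higher and 4.45% lower). In fshb/lhcgr mutants against controls 0 of 9 were called, against 0.0721% of all genes (0.0154% higher and 0.0566% lower). At an unadjusted p below 0.05 there was 1 of 9 in that comparison, fdx1, against 11.8% of all genes. The same count was 6 of 9 in lhb/lhcgr mutants against controls (24.9% of all genes) and 3 of 9 between the mutants (18% of all genes). In fshb/lhcgr mutants against controls limma-voom and DESeq2 likewise called 0 of the 9, the latter with 1.37% of all genes called. Between the mutants 1 of 9 was called, as lower in lhb/lhcgr mutants, against 2.37% of all genes (0.917% higher and 1.45% lower). The called gene was star both times. The 2 comparisons with controls share the same 3 control libraries.

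The first step of entry, uptake by scarb1 (ENSDARG00000101557), the scavenger receptor that binds high-density lipoprotein, overlapped in level across the groups. Its values were 547.5, 605 and 513 CPM in controls, 657, 642.5, 437 and 489 in lhb/lhcgr mutants, then 524, 607, 607 and 679 in fshb/lhcgr mutants. The spread was widest in lhb/lhcgr mutants, where replicates 3 and 4 lay below every control and replicates 1 and 2 above every control. The log2 difference from controls was 0.00 in lhb/lhcgr mutants (95% interval -0.37 to 0.38, adjusted p = 0.994) and 0.12 in fshb/lhcgr mutants (-0.26 to 0.50, adjusted p = 0.832).

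The endosomal carrier gene stard3 (ENSDARG00000017809) was read at 143, 104 and 92.7 CPM in controls. It was read at 85.0, 78.9, 71.7 and 83.7 CPM in lhb/lhcgr mutants, then at 124, 95.4, 106 and 104 CPM in fshb/lhcgr mutants. All 4 lhb/lhcgr mutant libraries lay below every other library, and they lay close together, with a coefficient of variation of 7.57%. The difference from controls did not pass the threshold (-0.51, SE 0.17, adjusted p = 0.0771), nor did that from the fshb/lhcgr mutants (-0.43, SE 0.15, adjusted p = 0.162).

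The mitochondrial carrier gene star (ENSDARG00000006137) fell in lhb/lhcgr mutants. Its counts were 514, 231 and 413 in controls, which is 34.4, 16.4 and 26.0 CPM. In the lhb/lhcgr mutants 101, 202, 174 and 120 counts gave 6.10, 12.4, 6.46 and 7.23 CPM. All 4 of these mutant libraries lay below all 3 controls, the nearest pair being lhb/lhcgr mutant 2 and control 2.

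The mean of star went from 25.6 ± 9.01 CPM (SD, n = 3) in controls to 8.03 ± 2.92 (SD, n = 4), 3.19-fold lower, with a log2 difference of -1.67 (SE 0.41, 95% interval -2.56 to -0.78, adjusted p = 0.0309). In the fshb/lhcgr mutants 206, 258, 278 and 775 counts gave 14.1, 17.0, 21.5 and 48.0 CPM. These 4 libraries spanned the control range on both sides, and their mean of 25.1 ± 15.5 CPM (SD, n = 4) was next to that of the controls (-0.03, SE 0.41, 95% interval -0.91 to 0.86, adjusted p = 0.987). That interval still holds a change of nearly 1 log2 unit either way. The mutants themselves did not overlap, and star was 3.13-fold lower in the lhb/lhcgr than in fshb/lhcgr mutants (-1.65, SE 0.39, adjusted p = 0.0458).

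Both calls of star hung on single libraries. Against controls it missed the threshold without control 1 (-1.40, adjusted p = 0.125) and without control 3 (0.0555), and likewise without lhb/lhcgr mutant 1 (0.0739), 3 (0.0718) or 4 (0.0918). Between the mutants it was lost without control 3 (0.0569), any of lhb/lhcgr mutants 1 (0.0935), 3 (0.134) and 4 (0.140), or without fshb/lhcgr mutant 2 (0.0501), 3 (0.0878) or 4 (-1.13, 0.0958), and also with libraries scaled by size only (0.0598) or with limma-voom (0.0655). The log2 difference stayed at or below -1.13 in each of these fits, and DESeq2, which called 12.7% of all genes against controls and 6.89% between the mutants, gave adjusted p-values of 0.00155 and 0.000991.

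**Figure D2:**
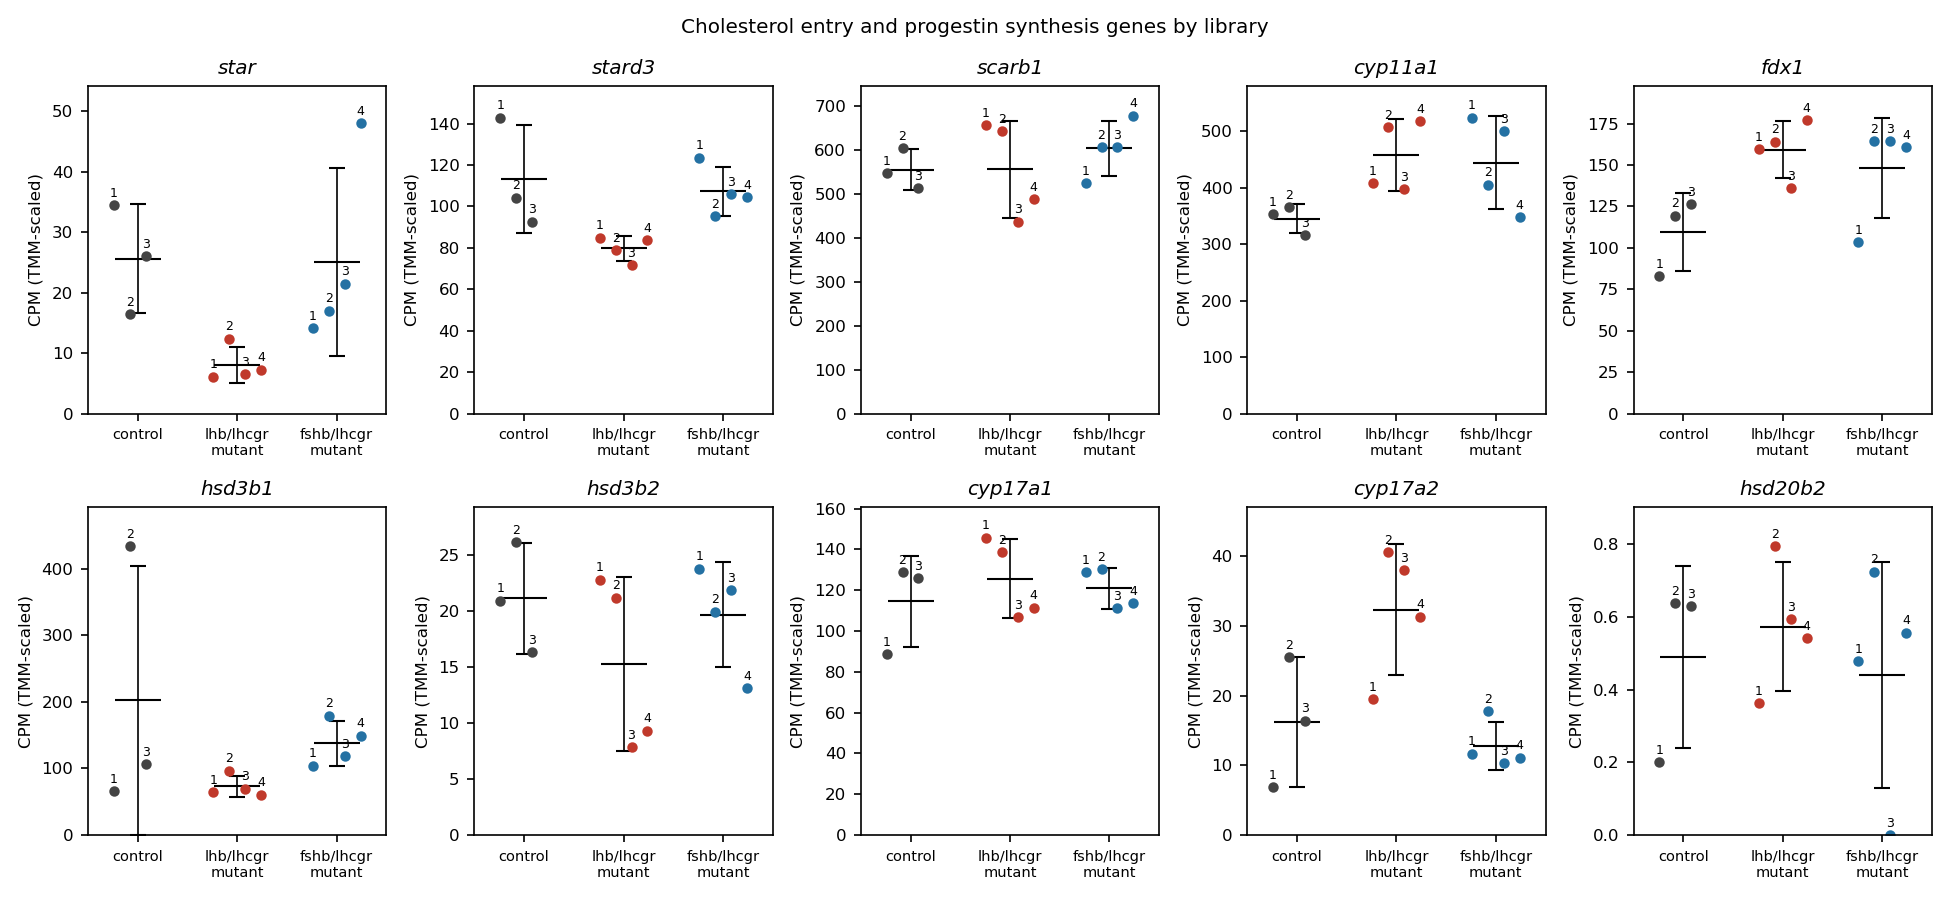
CPM (TMM-scaled) of each of the 10 genes by library, with replicate numbers at the points and bars for the mean ± SD of a group (n = 3, 4 and 4). For star all 4 lhb/lhcgr mutant libraries (6.10 to 12.4 CPM) lie below all others, and for hsd3b1 control 2 stands at 434 CPM against 66.1 and 107 in the other controls.

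Some markers of cells around the follicle wall were also lower in the lhb/lhcgr mutants. The summed level of 6 endothelial markers was 118 to 209 CPM in controls, 66.7 to 75.0 in lhb/lhcgr mutants, then 96.9 to 190 in fshb/lhcgr mutants. Among them 2 of 6, kdrl and flt1, were called lower against both other groups, flt1 only just so between the mutants (adjusted p = 0.04998). Not every member went that way, as tie1 was at 0.50 against controls and pecam1 at -0.09 between the mutants, neither called. The fshb/lhcgr mutant library with the highest star, replicate 4, had the lowest endothelial sum of its group (96.9 CPM), and control 2, the lowest control for star, had the highest (209 CPM). In fshb/lhcgr mutants 1, 2 and 3 the endothelial sum was 110.5, 159 and 190 CPM, in the same order as star. The summed level of the stroma markers was 122 to 199, 93.5 to 101 and 194 to 322 CPM. By replicate number it was 122, 174 and 199 CPM in controls and 194, 238, 322 and 210 CPM in fshb/lhcgr mutants. In lhb/lhcgr mutants against controls 2 of 4 tested were called lower, the collagen genes col1a1a and col1a2 (dcn was at -0.01 and pdgfra at -0.23). Between the mutants 3 of 4 were called lower, namely col1a1a (adjusted p = 0.00313), col1a2 (0.00163) and dcn (0.04998). Of all genes tested 4.45% were called lower and 2.89% higher in lhb/lhcgr mutants against controls, and 1.45% lower between the mutants. The endothelial and stroma calls were not checked with a library left out. Of the theca markers, whose cells are a main site of steroid synthesis, 0 of 7 were called in any comparison, and of the granulosa markers 1 of 8 tested, fshr, which was higher in lhb/lhcgr mutants than in controls, a call lost when control 1 (0.0635), control 3 (0.0525) or lhb/lhcgr mutant 4 (0.0577) was left out. Since the theca list includes lhcgr, homozygous mutant in both mutants, its count of called genes does not measure theca cells alone. None of these lists was at 0 in any library. Their part in the result was not tested.

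The side chain cleavage enzyme gene cyp11a1 (ENSDARG00000002347) did not fall where star fell. It was read at 354, 365 and 316 CPM in controls, 408, 507, 398 and 518 in lhb/lhcgr mutants, then 524, 405, 500 and 348 in fshb/lhcgr mutants. All lhb/lhcgr mutant libraries lay above all controls, while 1 fshb/lhcgr mutant library, replicate 4, lay within the control range. The log2 differences from controls were 0.41 (95% interval 0.03 to 0.79, adjusted p = 0.173) and 0.37 (-0.02 to 0.75, adjusted p = 0.443), and neither passed the threshold. Its paralog cyp11a2, a near copy with which reads could be shared, was far lower, at 10.2, 15.3 and 11.1 CPM on average (log2 difference 0.59 of lhb/lhcgr mutants from controls, adjusted p = 0.280).

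The ferredoxin gene fdx1 (ENSDARG00000056410), of a family whose proteins hand electrons to the mitochondrial enzyme, was read at 82.8, 119 and 126 CPM in controls. It was at 160, 164, 136 and 177 CPM in lhb/lhcgr mutants, then at 103, 164, 165 and 161 CPM in fshb/lhcgr mutants. The lhb/lhcgr mutants did not overlap the controls, and in fshb/lhcgr mutants 3 of 4 libraries lay close together above the controls while replicate 1 lay among them. The differences from controls did not pass the threshold (0.54, SE 0.20, adjusted p = 0.110, and 0.44, SE 0.20, adjusted p = 0.411).

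Since star and cyp11a1 act one after the other, their counts were also set against each other within a library, which removes depth and scaling. Counts of star were 9.73%, 4.49% and 8.23% of those of cyp11a1 in controls. They were 1.49%, 2.44%, 1.63% and 1.40% in lhb/lhcgr mutants, then 2.68%, 4.19%, 4.29% and 13.8% in fshb/lhcgr mutants. All lhb/lhcgr mutant libraries lay below all others. The mean log2 ratio was -5.88 ± 0.36 (SD, n = 4) there, against -3.81 ± 0.59 (SD, n = 3) in controls and -4.30 ± 1.01 (SD, n = 4) in fshb/lhcgr mutants. A 2-sided exact permutation test gave p = 0.0571 against controls and p = 0.0286 between the mutants, the smallest values that 3 against 4 and 4 against 4 libraries can give. Adjusted over the 9 tests made of 3 ratios both became 0.171 by the exact test, and no result of these designs could pass after the adjustment.

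**Figure D3:**
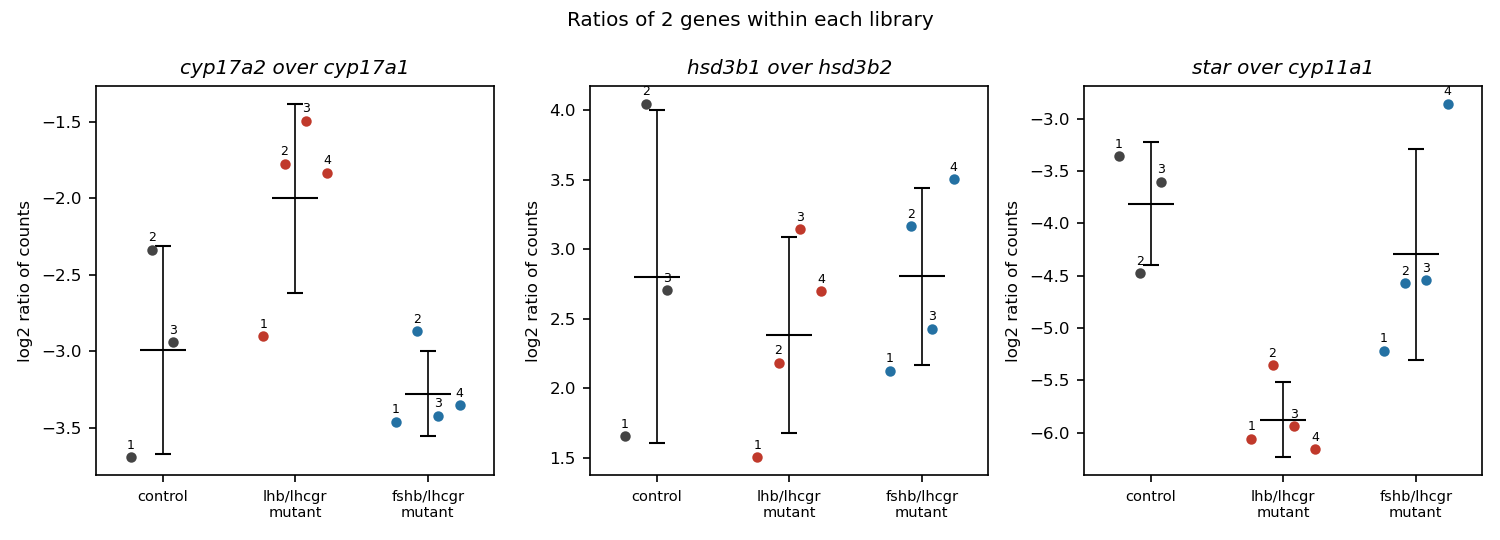
Log2 ratio of counts within each library for star over cyp11a1, hsd3b1 over hsd3b2 and cyp17a2 over cyp17a1, by group, with the mean ± SD. The star over cyp11a1 ratio of the lhb/lhcgr mutants (mean -5.88) lies below that of both other groups (means -3.81 and -4.30), and the hsd3b1 over hsd3b2 ratios overlap in all 3 groups.

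The dehydrogenase gene hsd3b1 (ENSDARG00000069926), whose enzyme makes progesterone from pregnenolone, varied most of the 10 genes among the controls. Its counts of 988, 6114 and 1694 gave 66.1, 434 and 107 CPM there, a 6.56-fold range. The lhb/lhcgr mutants were at 64.8, 96.6, 69.4 and 60.8 CPM and the fshb/lhcgr mutants at 104, 179.5, 118 and 149 CPM. The mutants did not overlap with each other, while the controls overlapped both. Control 2 also held the highest sums of granulosa (1030 CPM) and theca (700 CPM) markers among the controls. The part of these cells in its hsd3b1 value was not tested.

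The mean of hsd3b1 was 202 ± 202 CPM (SD, n = 3) in controls, 72.9 ± 16.2 (SD, n = 4) in lhb/lhcgr mutants, then 138 ± 33.6 (SD, n = 4) in fshb/lhcgr mutants. The log2 difference of the lhb/lhcgr mutants from controls was -1.47 (SE 0.52, adjusted p = 0.107) and became -0.25 (adjusted p = 0.622) without control 2. That of the fshb/lhcgr mutants was -0.55 (SE 0.51, adjusted p = 0.724) and turned to 0.67 (adjusted p = 0.350) without it. Between the mutants the difference was -0.92 (SE 0.48, adjusted p = 0.354). It passed the threshold without control 2 (adjusted p = 0.0344) and when only the mutants were fitted (adjusted p = 0.0231). Control 2 is in neither mutant group and enters this comparison through the shared estimate of the spread, the filter, the scaling and the adjustment of p.

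The second such gene, hsd3b2 (ENSDARG00000019747), was lower in level throughout. In the RefSeq gene table (assembly GRCz12tu) hsd3b1 is listed as a synonym of hsd3b2, so the names of this pair differ between annotations. Its values were 20.9, 26.2 and 16.3 CPM in controls, 22.8, 21.2, 7.84 and 9.33 in lhb/lhcgr mutants, then 23.8, 19.97, 21.9 and 13.1 in fshb/lhcgr mutants. The lhb/lhcgr mutants fell into a pair within the control range and a pair below it, replicates 3 and 4. No difference was called (-0.47, adjusted p = 0.467, and -0.10, adjusted p = 0.944, against controls). The log2 ratio of hsd3b1 to hsd3b2 was 2.80 ± 1.199 (SD, n = 3) in controls, 2.38 ± 0.70 (SD, n = 4) in lhb/lhcgr mutants, then 2.81 ± 0.64 (SD, n = 4) in fshb/lhcgr mutants, with p of 0.429 or more in the exact permutation tests.

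The cyp17 genes differed from each other in their pattern. The enzyme of cyp17a1 (ENSDARG00000033566) both hydroxylates progestins and cleaves them on to androgens, while that of cyp17a2 (ENSDARG00000053966) is known in fish as a hydroxylase that lacks the cleaving activity. Values of cyp17a1 were 88.7, 129 and 126 CPM in controls, 146, 139, 107 and 112 in lhb/lhcgr mutants, then 129, 130, 111 and 114 in fshb/lhcgr mutants. The groups overlapped, with log2 differences from controls of 0.13 (95% interval -0.24 to 0.50, adjusted p = 0.692) and 0.08 (-0.29 to 0.45, adjusted p = 0.897).

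Counts of cyp17a2 were 102, 360 and 260 in controls, or 6.83, 25.5 and 16.4 CPM. The lhb/lhcgr mutants had 323, 664, 1023 and 520 counts, or 19.5, 40.6, 38.0 and 31.3 CPM, and the fshb/lhcgr mutants had 171, 270, 134 and 179 counts, or 11.7, 17.8, 10.3 and 11.1 CPM. All 4 lhb/lhcgr mutant libraries lay above all 4 fshb/lhcgr mutant libraries, though the gap from 17.8 to 19.5 CPM was narrow, and 3 of 4 lay above all controls. The mean was 32.4 ± 9.42 CPM (SD, n = 4) in lhb/lhcgr mutants against 16.3 ± 9.36 (SD, n = 3) in controls and 12.7 ± 3.43 (SD, n = 4) in fshb/lhcgr mutants.

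Neither difference of cyp17a2 was called. Between the mutants it was 1.35 (SE 0.35, 95% interval 0.58 to 2.11, adjusted p = 0.0639), a 2.54-fold higher mean in lhb/lhcgr mutants. Against controls it was 0.99 (SE 0.39, 95% interval 0.17 to 1.82, adjusted p = 0.127). The first passed the threshold with libraries scaled by size only (adjusted p = 0.0412), with DESeq2 (0.00464), with only the mutants fitted (0.0186) and without control 1 (0.0170), control 2 (0.0315) or lhb/lhcgr mutant 1 (0.0446), and the second without control 2 (1.48, adjusted p = 0.0399).

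**Figure D4:**
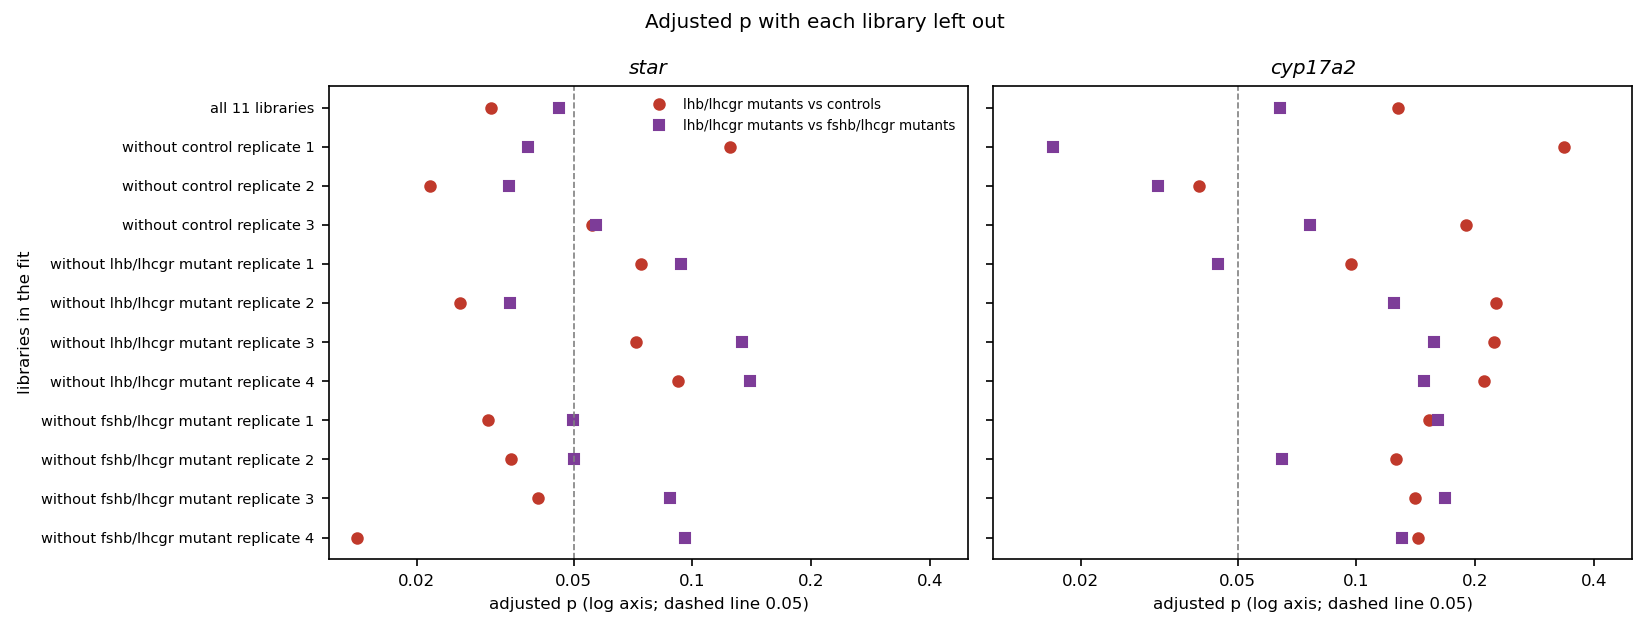
Adjusted p (log axis, edgeR) of star and cyp17a2 with all 11 libraries and with each library left out in turn, for lhb/lhcgr mutants against controls (circles) and against fshb/lhcgr mutants (squares). The dashed line is the threshold of 0.05, and the points of both genes lie on both sides of it.

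Within libraries, counts of cyp17a2 were 7.69%, 19.8% and 13.01% of those of cyp17a1 in controls. They were 13.4%, 29.3%, 35.5% and 28.1% in lhb/lhcgr mutants, then 9.06%, 13.7%, 9.30% and 9.76% in fshb/lhcgr mutants. The ratio in lhb/lhcgr mutant 1 lay among those of the other groups, and the ratios in the other 3 lay above all of them. The mean log2 ratio was higher by 0.99 in lhb/lhcgr mutants than in controls (exact permutation p = 0.114, adjusted 0.257) and by 1.28 than in fshb/lhcgr mutants (exact permutation p = 0.0571, adjusted 0.171).

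The last gene, hsd20b2 (ENSDARG00000031336), named for the 20-beta reduction, was barely read. It had 3, 9 and 10 counts in controls, 6, 13, 16 and 9 in lhb/lhcgr mutants, then 7, 11, 0 and 9 in fshb/lhcgr mutants. The library with 0 counts allows a level of up to 0.231 CPM, from 3 counts and for counting error only, and the highest library was at 0.795 CPM. In a fit without the filter its log2 differences from controls were 0.23 (SE 1.03, adjusted p = 0.957) and -0.14 (SE 1.03), with intervals of about 2 log2 units either way. Differences within those intervals were not detectable at this depth.

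**Figure D5:**
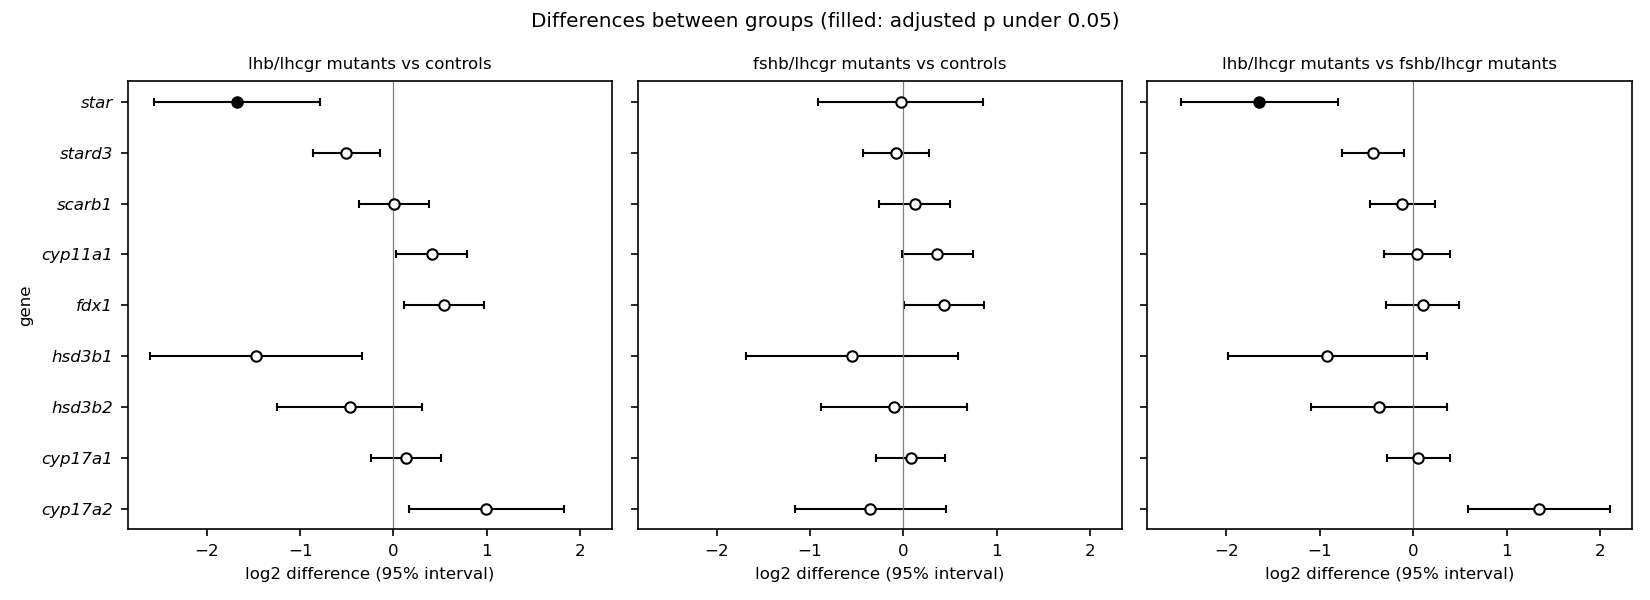
Log2 difference (points) with 95% interval (lines) of the 9 tested genes in the 3 comparisons, with filled points for an adjusted p below 0.05. The filled points are star at -1.67 against controls and at -1.65 between the mutants.

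The 9 tested genes had no common direction. In lhb/lhcgr mutants against controls 5 were positive and 4 negative, with a median log2 difference of 0.00 against 0.01 over all genes tested. In fshb/lhcgr mutants the median was -0.03, as over all genes. Between the mutants it was -0.12 against 0.02. Groups did not overlap for 4 of 9 genes in lhb/lhcgr mutants against controls (star and stard3 lower, cyp11a1 and fdx1 higher), where 22.8% of all genes did not overlap. In fshb/lhcgr mutants against controls this held for 0 of 9 (10.4% of all genes). Between the mutants it held for 4 of 9 (star, stard3 and hsd3b1 lower, cyp17a2 higher; 12.9% of all genes). The carriers star and stard3 were thus the members whose lhb/lhcgr mutant libraries lay below every library of both other groups. The share of all genes that lay below both groups was not computed, and stard3 was not called in any comparison.

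In the authors' deposited table of lhb/lhcgr mutants against controls the log2 fold change was -1.69 for star (unadjusted p = 2.74e-06), -1.46 for hsd3b1 (0.00205), 1.00 for cyp17a2 (0.0118), 0.54 for fdx1 (0.0126), -0.52 for stard3 (0.0222) and 0.40 for cyp11a1 (0.0397). In the authors' deposited table of fshb/lhcgr mutants the smallest unadjusted p among the 10 genes was 0.0846, for fdx1, and the log2 fold change of star was -0.04 (0.930).

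Libraries of 1 genotype differed among themselves in these genes. In the fshb/lhcgr mutants replicate 4 had the highest star (48.0 CPM) and scarb1 (679 CPM) and the lowest cyp11a1 (348 CPM) and hsd3b2 (13.1 CPM) of its group. It also had the lowest summed markers of granulosa (396 CPM), theca (376 CPM) and endothelium (96.9 CPM) there. The same held for the interrenal list (34.9 CPM), whose sums came mostly from hsd11b2 and not from the defining enzymes. In the lhb/lhcgr mutants replicates 3 and 4 were lower than replicates 1 and 2 in hsd3b2, scarb1 and cyp17a1, and their summed macrophage and neutrophil markers were 94.6 and 95.6 CPM against 19.4 and 37.2. Their summed liver markers were 8.32 and 9.21 CPM against 0.483 and 0.856. Levels like these were also found in fshb/lhcgr mutants 2 (9.16 CPM) and 4 (7.68 CPM). Of the 6 liver markers only 2 passed the filter, and fabp10a was at 0 in all libraries, so the sum does not show that liver cells were present. The part of these marker levels in the results was not tested. With both replicates 3 and 4 left out, a fit chosen after seeing the data, star was at -1.47 against controls (adjusted p = 0.197) and at -1.45 between the mutants (0.334), with 2 lhb/lhcgr mutant libraries left.

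Other genes of cholesterol supply, storage and transport were read from a list of textbook genes, of which 22 were tested. This list and those below were chosen with earlier results of these data known. In lhb/lhcgr mutants against controls 0 were higher and 1 lower, a share near the 4.45% of all genes called lower, with a median log2 difference of -0.09, and in the other comparisons 0 of 22 were called. The 1 lower gene was soat1 (ENSDARG00000062297), whose enzyme esterifies cholesterol for storage in droplets. It was at 102, 134 and 69.3 CPM in controls, 12.9, 46.6, 24.3 and 19.1 in lhb/lhcgr mutants, then 50.8, 48.8, 69.1 and 54.5 in fshb/lhcgr mutants. All lhb/lhcgr mutant libraries lay below all others, and all fshb/lhcgr mutant libraries lay below the lowest control, the nearest by less than 1 CPM. It fell by 1.99 on the log2 scale in lhb/lhcgr mutants (SE 0.36, adjusted p = 0.0101), a call that held without any 1 library, while the difference of the fshb/lhcgr mutants was not called (-0.87, adjusted p = 0.374).

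Among 6 genes for electron transfer and partners of the P450 enzymes 0 were called in any comparison by edgeR, with medians of -0.28, 0.25 and -0.20 for lhb/lhcgr mutants against controls, fshb/lhcgr mutants against controls and lhb/lhcgr against fshb/lhcgr mutants. The ferredoxin gene fdx1b, a paralog of fdx1, was at 0.47 (adjusted p = 0.459) and 0.70 (adjusted p = 0.461) against controls. The reductase gene fdxr, which feeds ferredoxins, was at -0.60 (adjusted p = 0.233) and -0.82 (adjusted p = 0.332) against controls, opposite in sign to fdx1 and fdx1b. The smallest adjusted p of this list was that of cyb5b between the mutants (-0.99, adjusted p = 0.05855). Against controls cyb5b was at -0.77 (adjusted p = 0.09565) in lhb/lhcgr mutants and at 0.22 (adjusted p = 0.804) in fshb/lhcgr mutants. Which ferredoxin serves cyp11a1 in these follicles was not tested.

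Of 17 other steroid dehydrogenases and reductases, 1 rose and 2 fell in lhb/lhcgr mutants against controls (2.89% and 4.45% of all genes did), 0 were called in fshb/lhcgr mutants, and 1 was lower in the lhb/lhcgr than in fshb/lhcgr mutants (1.45% of all genes). The carbonyl reductase gene cbr1 (ENSDARG00000036587), whose enzyme has 20-beta reducing activity in several fish, was at 86.1, 95.5 and 61.7 CPM in controls. It was at 35.7, 60.3, 28.5 and 31.7 CPM in lhb/lhcgr mutants, then at 86.2, 70.5, 100.4 and 80.2 CPM in fshb/lhcgr mutants. The lhb/lhcgr mutants lay below all others, with lhb/lhcgr mutant 2 just under control 3. It fell by 1.06 against controls (SE 0.25, adjusted p = 0.0234) and was lower by the test between the mutants too (-1.11, SE 0.23, adjusted p = 0.0246).

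The calls of cbr1 were lost against controls without control 1 (0.0759) or 2 (0.0532) or lhb/lhcgr mutant 1 (0.0571), 3 (0.0563) or 4 (0.0793), with only the groups compared fitted (0.0571) and with an offset for gene length (0.0579), and between the mutants without lhb/lhcgr mutant 1 (0.0520), 3 (0.0865) or 4 (0.0962) or without fshb/lhcgr mutant 1 (0.0697) or 3 (0.0762). Its relative cbr1l, chosen after its values were seen, averaged 11.5, 43.4 and 30.7 CPM in controls, lhb/lhcgr mutants and fshb/lhcgr mutants, and its differences from controls were not called (1.92, adjusted p = 0.109, and 1.43, adjusted p = 0.437). The other called genes were hsd17b12b (ENSDARG00000035872), of a family that elongates fatty acids and reduces steroids, and hsd17b1, which makes estradiol. The first fell from 215 ± 32.7 to 120 ± 16.6 CPM (-0.85, SE 0.20, adjusted p = 0.0233). This call ended when control 1 was left out (0.0743), and likewise for lhb/lhcgr mutant 1 (0.0614), 2 (0.0518) and 4 (0.0551), and with the replicate number as a block (0.0502). Its fshb/lhcgr mutant mean was 127 ± 31.9 CPM (-0.76, adjusted p = 0.214). The second rose by 1.80 (adjusted p = 0.0123).

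Of 22 tested transcriptional regulators of steroid genes, 0 rose and 1 fell in lhb/lhcgr mutants against controls (median -0.02), a share near that of all genes called lower (4.45%), and 0 were called in the other comparisons (medians -0.31 and 0.41). The lower gene was gata6 (ENSDARG00000103589), a factor known from mammals to bind promoters of steroidogenic genes, at 211 ± 95.6, 84.7 ± 29.9 and 135 ± 18.6 CPM in controls, lhb/lhcgr mutants and fshb/lhcgr mutants. It fell by 1.31 (SE 0.31, adjusted p = 0.0278) in lhb/lhcgr mutants. This call ended when control 2 was left out (0.0793), and likewise for lhb/lhcgr mutants 2 (0.0548) and 4 (0.0659), with only the groups compared fitted (0.0648) and with the length offset (0.0581).

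Of 15 genes for cAMP input and progestin receptors, 1 rose (fshr) and 3 fell in lhb/lhcgr mutants against controls. Of all genes 2.89% rose and 4.45% fell there, and 0 of the 15 were called in the other comparisons. The list was chosen with earlier results of these data known, so its counts are no test against those shares. The membrane progestin receptor gene paqr7a was at 7.26 CPM in controls, 0.699 in lhb/lhcgr mutants, then 1.04 in fshb/lhcgr mutants. It fell in the former (-3.34, adjusted p = 0.00878), and the difference in the latter was not called (-2.79, SE 0.59, adjusted p = 0.120). Likewise pde4ba, which breaks down cAMP, averaged 527.5, 203 and 232.5 CPM, with -1.37 (adjusted p = 0.0152) and -1.18 (SE 0.28, adjusted p = 0.167), and the nuclear receptor gene pgr averaged 273, 117 and 210 CPM, with -1.23 (adjusted p = 0.0183, and 0.0551 without lhb/lhcgr mutant 4) and -0.38 (adjusted p = 0.613). With lhb/lhcgr mutants 3 and 4 both left out, the calls against controls of soat1 (adjusted p = 0.0987), cbr1 (0.175), hsd17b12b (0.0784), hsd17b1 (0.0784), gata6 (0.0589) and fshr (0.112) were lost, as was that of cbr1 between the mutants (0.263). Of a separate list of 4 genes for later steps of steroid synthesis only the aromatase gene cyp19a1a was tested. It was not called against controls in lhb/lhcgr mutants (-1.81, SE 0.90, adjusted p = 0.240) or fshb/lhcgr mutants (0.21, adjusted p = 0.955). Nor was it called between the mutants (-2.02, SE 0.86, adjusted p = 0.238). The gene hsd17b1, which makes estradiol and was called higher, is counted above among the dehydrogenases.

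The 5 tested genes whose log2 CPM followed that of star most closely over the 11 libraries, out of 14074 genes with a usable symbol, were ccdc102a (Pearson r 0.96, Spearman rho 0.95), acap3b (0.96, 0.87), ssh2a (0.95, 0.95), fhdc3 (0.94, 0.93) and senp7b (0.94, 0.94). These are descriptions over libraries that share 3 genotypes and carry no p. Means in controls, lhb/lhcgr mutants and fshb/lhcgr mutants were 99.2, 37.4 and 85.9 CPM for ccdc102a and 184.6, 81.5 and 158 CPM for fhdc3. They were 114, 46.3 and 95.2 CPM for ssh2a, 47.9, 29.4 and 45.4 CPM for acap3b and 53.7, 40.05 and 53.0 CPM for senp7b. The last 2 were not called against controls in lhb/lhcgr mutants (adjusted p = 0.0626 and 0.0984). Since the 5 genes were picked by their likeness to star in these libraries, a shared group pattern follows from the choice. None of the 10 genes of the pathway itself was among the 5.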

How the data were processed

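RNA was taken up in Trizol, bound to poly-T beads and made into libraries with the TruSeq kit, per the labels' protocols. The authors deposited raw counts per gene and FPKM values, with 1 fixed length per gene. The deposited tables of both mutants against controls give log2 fold changes, unadjusted p-values and mean signal per group, and per the submitters' processing notes DESeq2 1.20.0 was used. The sources used here name no aligner, counting tool, strand setting or genome build. Coordinates are therefore left out, and reads of near copies or overlapping genes may be shared. Totals of 14179252 to 25484718 counts limit the precision for genes with few counts, and the spread between libraries adds to the uncertainty.

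From the counts, edgeR 4.0.16 in R 4.3.3 fitted 1 robust quasi-likelihood model over 11 libraries with 3 group means, with TMM factors and filterByExpr (minimum count 10, minimum total 15), which kept 19421 genes. The common biological coefficient of variation was 0.384. CPM are TMM-scaled. FPKM serve for levels between genes, and FPKM set side by side between groups are as the authors gave them. Their scale per library departs from the sum of counts by factors of 0.885 to 1.033. Ratios of counts within a library, with 0.5 added, were tested by exact 2-sided permutation (SciPy 1.17.1). The fit was also run on simulated counts with known changes and the same spread for every gene. That setting does not cover genes with a spread of their own or single outlying libraries, so nothing about the calls is drawn from it.

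Named genes are the 10 members, up to 3 called genes with the smallest p of each list and comparison, and the 5 genes most like each called member. Outside that rule fshr, cyp11a2, fdx1b, fdxr, cyb5b, cyp19a1a, cbr1l, marker genes, lhb, fshb and lhcgr were also named by choice. Members and lists were chosen with earlier results of these data known. All 10 gene IDs matched a table of gene names. Alternatives were RLE factors, library size only, no filter, limma-voom (limma 3.58.1), DESeq2 1.42.0, a filter of 1 CPM in 3 libraries, only the groups compared, a replicate block, an offset for gene length, and each library left out.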

Additional observations from a re-analysis of the deposited data

Results flagged for a closer look

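In the fshb/lhcgr mutants the lowest library for fdx1, replicate 1, stood at 103.4 CPM, far from the other 3, which lay between 161 and 165 CPM. Its gap to the nearest of the others was 0.941 of the whole range, above Dixon's 95% critical value for 4 samples. It was the only one of 26 sets of values checked in this way, and chance gives about 1 in 20.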

How the results depend on the processing

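Counts of all genes called (1426 for lhb/lhcgr mutants against controls, 14 for fshb/lhcgr mutants against controls and 460 between the mutants) moved more than 1.5-fold under these settings. DESeq2 gave 2592, 271 and 1364. Fitting only the groups compared gave 817 in the first comparison and 889 in the third, the length offset 831 in the first and 7 in the second, no filter 24 and limma-voom 5 in the second, and leaving out lhb/lhcgr mutants 3 and 4 gave 129 in the first and 27 in the third. Leaving out 1 library at a time gave 297 to 1448, 1 to 22 and 104 to 795. With library size only the split of higher to lower became 848 to 578 in place of 562 to 864 in the first comparison, and 318 to 200 in place of 178 to 282 in the third, where the median of all genes moved from 0.01 to 0.12 and from 0.02 to 0.15. Of the pathway's 9 tested genes, the first comparison called 0 to 2 with 1 library left out and 0 without lhb/lhcgr mutants 3 and 4, the second called 0 in every fit, and the third called 0 to 3 with 1 library left out, 2 with DESeq2, 0 with limma-voom, 3 with only the groups compared and 0 without lhb/lhcgr mutants 3 and 4. Deviations from the group mean correlated weakly between libraries of the same replicate number (-0.0844 to 0.122), and 5 of 11 libraries were closest to their own number. These values cannot decide whether the replicate numbers pair the samples, since some such matches also arise by chance. The replicate numbers are those of the sample titles, and most libraries bear another number in their names. Pairing by the names would match the controls to the mutants differently. With the replicate number as a block 943 and 8 genes were called in the first and second comparison and 2 of the 9, star and cyp17a2 (adjusted p = 0.0484), in the first, while between the mutants the block took star to 0.0811 and cyp17a2 to 0.0272. Signs turned in 14 of 27 gene comparisons, all of them comparisons in which the gene was not called. For scarb1 against controls in lhb/lhcgr mutants RLE factors gave -0.0038, DESeq2 -0.0037, limma-voom -0.0152 and the block -0.0048, and between the mutants library size only gave 0.0057, the length offset 0.0225 and the fit without lhb/lhcgr mutants 3 and 4 0.1057. For hsd3b2 that last fit gave 0.0603 against controls and 0.1607 between the mutants, and the block 0.102 in fshb/lhcgr mutants, while the length offset gave -0.0106 for fdx1 between the mutants. With 1 library left out, log2 differences ran from -0.0863 to 0.1048 for scarb1 and -0.0186 to 0.2276 for cyp17a1 in the first comparison. In the second they ran from -0.5485 to 0.2457 for star, -0.1966 to 0.126 for stard3, -0.9688 to 0.673 for hsd3b1, -0.2403 to 0.0798 for hsd3b2, -0.0744 to 0.1734 for cyp17a1 and -0.7173 to 0.1318 for cyp17a2. In the third they ran from -0.0594 to 0.1305 for cyp11a1, -0.0365 to 0.1729 for fdx1 and -0.023 to 0.1273 for cyp17a1. Mean log2 ratios differed by -0.9949 to 0.201 (first comparison) and -0.5706 to 0.6253 (second) for hsd3b1 over hsd3b2, and by -0.6389 to 0.0407 (second) for cyp17a2 over cyp17a1. The cause of these shifts was not tested. Depth limits hsd20b2, which had at most 16 counts in a library.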
